A study of Mus musculus with 24 samples.

Results

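Kinesins are motor proteins that walk along microtubules, the filaments that vincristine takes apart, and this account follows their genes in leukemic mouse spleens. Members were the genes of the deposited table named Kif with a number, as in Kif11 or Kif20b, which gave 37 of 46078 genes. Of these, 33 had a mean level of at least 3.32 on the log2 scale (the log2 of 10) and were tested among 16557 genes. Kif6, Kif12 and Kif27 were under that minimum, with Kif27 at 1.33 to 2.53 and Kif6 and Kif12 lower, and Kif2b was at 0 in every mouse. By textbook role, 11 of the tested members work in mitosis, 13 carry cargo, and 9 act on microtubule ends, centrioles or cilia or are less studied. Kif2a, which also works at spindle poles, was placed with the last 9, so counts of mitotic members leave it out. Roles were assigned with earlier results of these data known.

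The study compared spleens at the end of treatment from 24 male C57BL/6J mice, all of them injected with syngeneic, GFP-expressing BCR-ABL B-ALL cells, so that the controls carried leukemia too. The labels give an age of 20 weeks, which the methods place at the injection of the leukemia cells. FMD+VC mice received the fasting mimicking diet (FMD) together with vincristine (VC), a drug that binds tubulin. VC mice ate ad libitum and received vincristine, FMD mice received the diet with vehicle, and CTRL mice ate ad libitum and received vehicle. Each group held 6 mice with 1 library each, numbered by mouse, and no mouse was in more than 1 group. The values are regularized logarithms (rlog), a log2 scale of gene counts scaled for depth, on which 1 unit is a 2-fold change. This transformation pulls genes with few reads toward their own mean, so that fold changes of low genes are understated.

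Kinesins of mitosis separate the spindle poles, move chromosomes and build the midzone where a dividing cell is cut, and their messages rise in G2 and M phase and are low in resting cells. Transport kinesins carry vesicles, organelles and RNA toward microtubule plus ends in resting and dividing cells alike. In the spleen, divisions come from leukemic blasts, from erythroid and myeloid precursors and from activated lymphocytes, and most mature B and T cells rest.

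Marker lists stood for pre-B, mature B, T and erythroid cells, neutrophils and others, and no listed marker was at 0 in every mouse. No list was specific to leukemic blasts or to activated lymphocytes. Markers of mature B cells were higher in FMD+VC than in CTRL mice in 8 of 8 genes and those of T cells in 7 of 8, while erythroid markers were lower in 6 of 12, neutrophil markers in 5 of 8, and 0 of 6 tested pre-B cell markers passed the threshold in either direction. In this comparison 19.5% of all tested genes were called higher and 20.0% lower. The mean rlog of the mature B cell markers was 11.74 to 12.40 in FMD+VC and 9.59 to 10.59 in CTRL mice, and that of the pre-B cell markers was 5.83 to 8.20 in FMD+VC and 5.65 to 7.49 in CTRL mice. A single mouse made each of these pre-B ranges overlap. In FMD+VC, mouse 45 was at 8.20 and the other 5 mice at 5.83 to 6.01, while in CTRL, mouse 32 was at 5.65 and the other 5 mice at 6.66 to 7.49. In bulk spleen RNA, fewer cells of a type and less RNA per cell cannot be told apart, and this holds for every kinesin below. CTRL mouse 32 stood apart with an erythroid mean of 13.44, against 8.16 to 12.003 in the other CTRL mice, and the fits of the tested kinesins were repeated without it. Counts of marker genes, partner genes and kinesins with other names were not refitted without this mouse.

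Most promoters of the mitotic kinesins held a motif that few of the other tested kinesins held. The cell cycle genes homology region (CHR) is the motif TTTGAA, read as TTCAAA on the other strand, through which the DREAM and MuvB complexes are known to act on genes of G2 and M phase, often beside the CCAAT box (CCAAT, or ATTGG on the other strand) bound by NF-Y. RefSeq windows of GRCm38.p6, from 250 bases before to 50 after the annotated start, were found for 31 of the 37 members. Those without one were Kif5a, Kif5b, Kif13b, Kif19a, Kif20a and Kif21b. A CHR match lay in 9 of 10 mitotic kinesins, all but Kif18a, and in 2 of the 17 other tested kinesins, Kif1a and Kif26b, against 20.2% of the 27025 genes with such windows (17.9% of 32851 windows). A CCAAT box lay in 6 of the 10 and in 5 of the 17 others, against 41.1% of genes (37.4% of windows). Both motifs lay in 6 of the 10 and in 1 of the 17 others, against 7.97% of genes (6.95% of windows). Kif27, under the minimum and so not in these counts, held CHR matches at -191, -89 and -73 and a CCAAT box at -222. A match is a description of letters and does not show a bound site.

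The Kif11 promoter is shown up to the base before the start because its layout recurs in Kif22, with a CCAAT box and a CHR shortly before the start. Capitals mark CHR and CCAAT matches on either strand, the CHR and CCAAT matches do not overlap in the stretches shown, and all sequences run 5′ to 3′ on the strand of the gene.
Kif11 (chr19:37376132-37376381, plus strand, -250 to -1): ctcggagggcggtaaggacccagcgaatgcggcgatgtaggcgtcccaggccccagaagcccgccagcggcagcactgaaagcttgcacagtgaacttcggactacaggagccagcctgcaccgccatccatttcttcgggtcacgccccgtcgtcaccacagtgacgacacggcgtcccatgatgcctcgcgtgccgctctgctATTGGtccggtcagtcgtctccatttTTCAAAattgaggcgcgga

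Stretches of the other mitotic promoters are shown around the CHR match nearest to the start, so that position and neighbours can be compared.
Kif22 (chr7:127042425-127042484, minus strand, -64 to -5): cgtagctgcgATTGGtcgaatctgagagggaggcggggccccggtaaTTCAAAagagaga
Kif15 (chr9:122951015-122951074, plus strand, -66 to -7): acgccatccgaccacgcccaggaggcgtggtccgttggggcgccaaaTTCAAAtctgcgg
Kif23 (chr9:61946785-61946844, minus strand, -45 to +15): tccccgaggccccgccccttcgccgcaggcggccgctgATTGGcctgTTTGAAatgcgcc
Kif18b (chr11:102925109-102925168, minus strand, -44 to +16): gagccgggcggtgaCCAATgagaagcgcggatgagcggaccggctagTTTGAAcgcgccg
Kif4 (chrX:100626033-100626092, plus strand, -32 to +28): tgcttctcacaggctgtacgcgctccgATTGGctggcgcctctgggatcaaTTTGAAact
Kif20b (chr19:34922318-34922377, plus strand, -40 to +20): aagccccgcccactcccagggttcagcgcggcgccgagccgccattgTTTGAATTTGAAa
Kif2c (chr4:117178863-117178922, minus strand, -150 to -91): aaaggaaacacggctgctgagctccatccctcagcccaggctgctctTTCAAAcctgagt
Kif14 (chr1:136467598-136467657, plus strand, -250 to -191): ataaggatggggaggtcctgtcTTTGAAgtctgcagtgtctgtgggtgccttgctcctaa

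The CHR nearest to the start began at -19 in Kif11 and Kif15 and at -17 in Kif22, counted in bases from the start, and at positions 3, 4, 8 and 20 in Kif23, Kif18b, Kif20b and Kif4, counted from 1 at the start base. Kif15 and Kif22 held another CHR, at -234 and -215. Kif20b held 2 CHR matches end to end. In Kif2c and Kif14 the match lay farther out, at -103 and -228. By the whole-gene positions given below, Kif2c, Kif14 and Kif4 begin upstream of their windows, which then lie inside the gene. Motif positions and counts of matches rest on the RefSeq starts. Kif24, a centriolar kinesin grouped with the other members, had no CHR but held TTCGAA at -26. This variant reads the same on both strands and occurs in 1.80% of genes (1.56% of windows). Kif2a, Kif7, Kif13a and Kif17, also called lower in FMD+VC than in CTRL mice, held no CHR, variant or CCAAT match. Kif24 is shown because its levels followed those of the mitotic kinesins, so its match was picked with the levels known.
Kif24 (chr4:41464862-41464922, minus strand, -74 to -14): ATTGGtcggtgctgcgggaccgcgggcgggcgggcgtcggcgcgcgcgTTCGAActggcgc

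**Figure D1:**
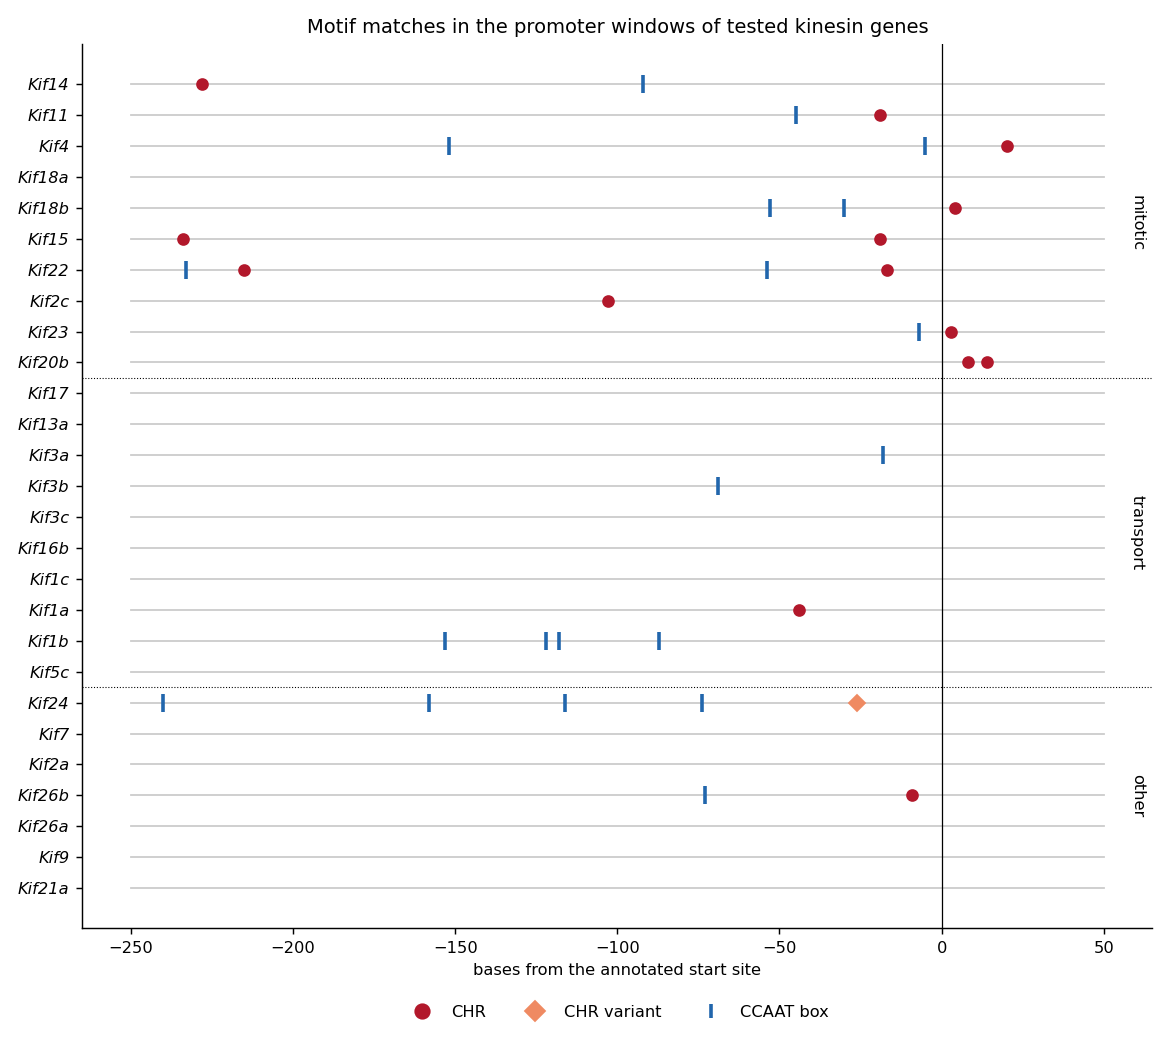
Positions of CHR (circles), CHR variant (diamond) and CCAAT box (bars) matches in the promoter windows of 27 tested kinesin genes, in bases from the annotated start (x axis), with genes down the page by role. Both windows of a gene with more than 1 are drawn on its line. CHR matches lie in 9 of 10 mitotic genes and in 2 of the 17 others.

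The first comparison asks what the diet and vincristine together did relative to untreated leukemic spleens. For its autophagy genes, the paper cautions that a higher leukemia burden in CTRL and FMD spleens than after vincristine might confound expression levels. It holds that FMD+VC and VC mice can be compared. The part of leukemia burden in the differences below was not tested. In FMD+VC against CTRL mice, 17 of the 33 tested kinesins were lower and 6 higher at an adjusted p under 0.05, against 20.0% of all tested genes called lower and 19.5% called higher (39.5% in either direction). The share called higher was thus close to that of all genes. All 11 mitotic kinesins were among the lower ones, by 1.77-fold (Kif20b) to 3.03-fold (Kif14), with a median log2 difference of -1.39 against a median of -0.03 over all tested genes. The 13 transport kinesins split into 3 higher, 3 lower and 7 not called, with a median of 0.08, and the 9 others into 3 higher, 3 lower and 3 not called, with a median of 0.42. For the transport kinesins, both shares were near those of all genes. Every FMD+VC mouse was below every CTRL mouse in 12 kinesins and above every CTRL mouse in 6, against 9.62% and 10.8% of all tested genes.

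**Figure D2:**
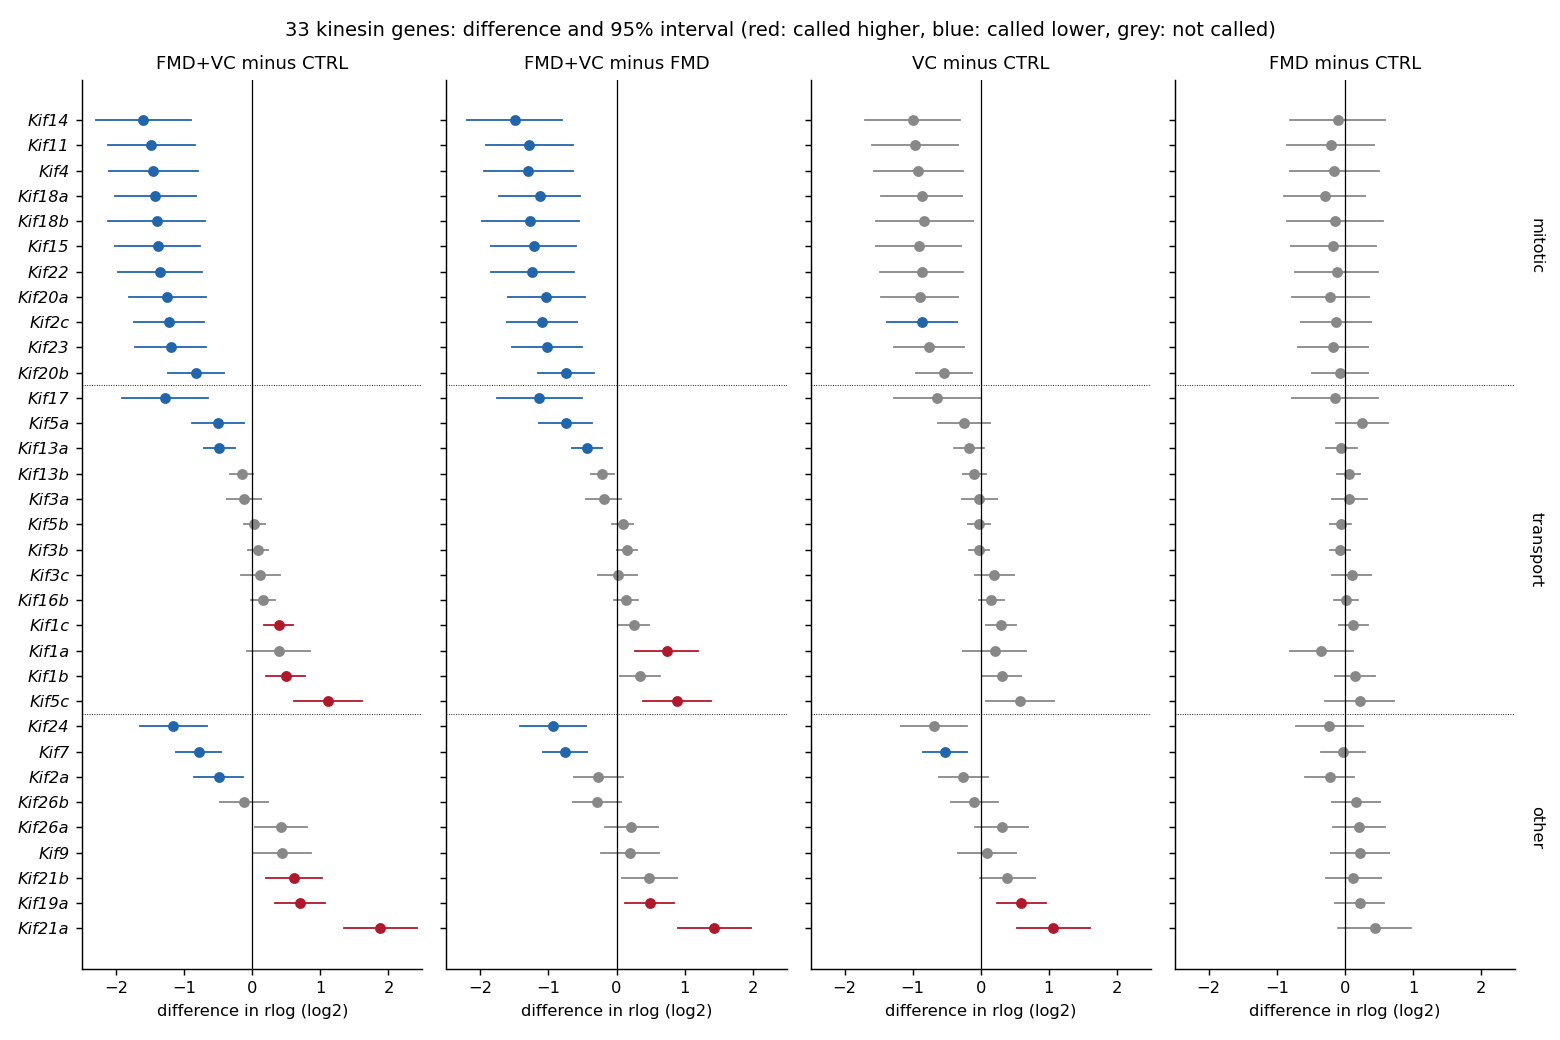
Difference in mean rlog (x axis, log2) with its 95% interval for each of 33 kinesin genes (y axis, by role) in 4 comparisons of 6 against 6 mice. In FMD+VC minus CTRL and FMD+VC minus FMD, all 11 mitotic kinesins lie below 0 and are called lower, whereas in FMD minus CTRL no kinesin is called.

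Gene positions are those of GENCODE M21 on GRCm38, for the whole gene. Among the motors that build the spindle, Kif11 (chr19:37376403-37421859), also called Eg5, pushes the poles apart. Kif11 had a lowest, median and highest rlog of 9.47, 9.71 and 10.50 in FMD+VC, 9.36, 10.37 and 11.41 in VC, 10.89, 10.99 and 11.52 in FMD, and 10.68, 11.12 and 12.36 in CTRL mice. All 6 FMD+VC mice were below all FMD and CTRL mice, and VC mice lay in both ranges. Mean Kif11 was 2.80-fold lower in FMD+VC than in CTRL spleens (log2 difference -1.49 ± 0.31 SE, adjusted p = 0.000931). Kif15 (chr9:122951046-123018733) works beside Kif11 to keep the spindle bipolar. Kif15 had a lowest, median and highest rlog of 8.59, 8.62 and 9.65 in FMD+VC, 8.15, 9.45 and 10.24 in VC, 9.82, 10.01 and 10.36 in FMD, and 9.81, 10.14 and 10.86 in CTRL mice. FMD+VC mouse 45 stood above the other FMD+VC mice but still below every FMD and CTRL mouse. Kif15 differed by -1.39 ± 0.30 (SE) on the log2 scale between FMD+VC and CTRL spleens, 2.62-fold lower in FMD+VC, with an adjusted p of 0.00133.

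Kif2c (chr4:117159639-117182639) removes tubulin at kinetochores to correct wrong attachments. Kif2c had a lowest, median and highest rlog of 7.27, 7.51 and 8.28 in FMD+VC, 7.19, 7.91 and 8.75 in VC, 8.54, 8.67 and 8.95 in FMD, and 8.31, 8.76 and 9.64 in CTRL mice. FMD+VC mice again lay below all FMD and CTRL mice, with mouse 45 the nearest to them. Kif2c was 2.34-fold lower in FMD+VC than in CTRL spleens, a difference of -1.23 ± 0.25 (SE) on the log2 scale with an adjusted p of 0.000827. Kif18a (chr2:109280738-109341747) walks to the ends of kinetochore microtubules and dampens the swings of chromosomes. Kif18a had a lowest, median and highest rlog of 7.51, 7.59 and 8.13 in FMD+VC, 7.38, 8.33 and 9.33 in VC, 8.52, 8.74 and 9.34 in FMD, and 8.63, 8.83 and 10.32 in CTRL mice. No FMD+VC mouse overlapped the FMD or CTRL mice. Kif18a differed by -1.43 ± 0.29 (SE) on the log2 scale between FMD+VC and CTRL spleens, 2.69-fold lower in FMD+VC, with an adjusted p of 0.000767. Kif18b (chr11:102905529-102925124) limits astral microtubules together with Kif2c. Kif18b had a lowest, median and highest rlog of 7.34, 7.47 and 8.22 in FMD+VC, 7.23, 8.13 and 9.23 in VC, 8.42, 8.64 and 9.65 in FMD, and 8.14, 8.78 and 10.42 in CTRL mice. Here FMD+VC mouse 45 was above the lowest CTRL mouse, mouse 3, so that the groups overlapped by 1 mouse of each. Mean Kif18b was 2.65-fold lower in FMD+VC than in CTRL spleens (log2 difference -1.41 ± 0.34 SE, adjusted p = 0.00287).

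Kif4 (chrX:100625737-100727214) and Kif22 (chr7:127027729-127042471) are chromokinesins, which bind chromosome arms, and Kif4 also limits the length of the midzone. Kif4 had a lowest, median and highest rlog of 7.79, 7.99 and 8.82 in FMD+VC, 7.74, 8.63 and 9.59 in VC, 9.10, 9.15 and 10.10 in FMD, and 8.84, 9.40 and 10.83 in CTRL mice. FMD+VC mouse 45 came just below CTRL mouse 3, the lowest of the CTRL mice. Kif4 was 2.75-fold lower in FMD+VC than in CTRL spleens, a difference of -1.46 ± 0.32 (SE) on the log2 scale with an adjusted p of 0.0013. Exons of Kif4 share 15.1% of their bases with Pdzd11 on the other strand, whose level is called in neither direction (log2 difference -0.17, adjusted p = 0.4), and the sources used here do not say whether counting used strand. By the methods, HTSeq ran in its strict intersection mode, in which reads that fall in several genes at once were left out. Kif22 had a lowest, median and highest rlog of 7.99, 8.02 and 8.86 in FMD+VC, 7.79, 8.66 and 9.60 in VC, 9.16, 9.29 and 9.92 in FMD, and 8.85, 9.32 and 10.59 in CTRL mice. Apart from mouse 45, the FMD+VC mice of Kif22 lay close together and below all CTRL mice, and mouse 45 sat just above CTRL mouse 3. Kif22 differed by -1.36 ± 0.30 (SE) on the log2 scale between FMD+VC and CTRL spleens, 2.56-fold lower in FMD+VC, with an adjusted p of 0.00133.

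The remaining mitotic kinesins act late, at the midzone and in cytokinesis. Kif14 (chr1:136466343-136531511), which binds Prc1 and the citron kinase, had the largest fall of the family on the log2 scale. Kif14 had a lowest, median and highest rlog of 7.85, 7.96 and 8.88 in FMD+VC, 7.55, 8.81 and 9.82 in VC, 9.27, 9.40 and 10.23 in FMD, and 9.17, 9.43 and 11.03 in CTRL mice. All FMD+VC mice were below all FMD and CTRL mice. Kif14 was 3.03-fold lower in FMD+VC than in CTRL spleens, a difference of -1.60 ± 0.34 (SE) on the log2 scale with an adjusted p of 0.00105. Kif20a (chr18:34624613-34633277) carries the chromosomal passenger complex to the midzone. Kif20a had a lowest, median and highest rlog of 7.77, 7.84 and 8.64 in FMD+VC, 7.40, 8.34 and 9.19 in VC, 8.84, 8.93 and 9.45 in FMD, and 8.65, 9.14 and 10.24 in CTRL mice. FMD+VC mouse 45 lay just below the lowest CTRL mouse, and the other FMD+VC mice were farther down. Kif20a differed by -1.25 ± 0.28 (SE) on the log2 scale between FMD+VC and CTRL spleens, 2.37-fold lower in FMD+VC, with an adjusted p of 0.00145. Exons of Kif20a share 29.3% of their bases with Cdc23 on the other strand, which differed by -0.15 (log2, adjusted p = 0.169).

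Kif23 (chr9:61915905-61946774) forms centralspindlin with Racgap1. Kif23 had a lowest, median and highest rlog of 8.42, 8.55 and 9.25 in FMD+VC, 8.36, 9.01 and 9.96 in VC, 9.48, 9.66 and 9.95 in FMD, and 9.37, 9.61 and 10.68 in CTRL mice. The FMD+VC mice did not overlap the FMD or CTRL mice. Mean Kif23 was 2.30-fold lower in FMD+VC than in CTRL spleens (log2 difference -1.20 ± 0.25 SE, adjusted p = 0.00096). Kif20b (chr19:34922361-34975745) takes part in the final cut between daughter cells. Kif20b had a lowest, median and highest rlog of 8.88, 9.19 and 9.62 in FMD+VC, 8.85, 9.53 and 10.05 in VC, 9.71, 9.94 and 10.26 in FMD, and 9.77, 9.95 and 10.59 in CTRL mice. Again no FMD+VC mouse reached the FMD or CTRL mice, though its difference was the smallest of the 11. Kif20b was 1.77-fold lower in FMD+VC than in CTRL spleens, a difference of -0.82 ± 0.20 (SE) on the log2 scale with an adjusted p of 0.0028. The 11 mitotic kinesins had adjusted p between 0.000767 and 0.00287 in this comparison. Without CTRL mouse 32 all 11 were still called lower, with a median of -1.14, and with the erythroid marker mean as a covariate all 11 were called lower with a median of -0.92.

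**Figure D3:**
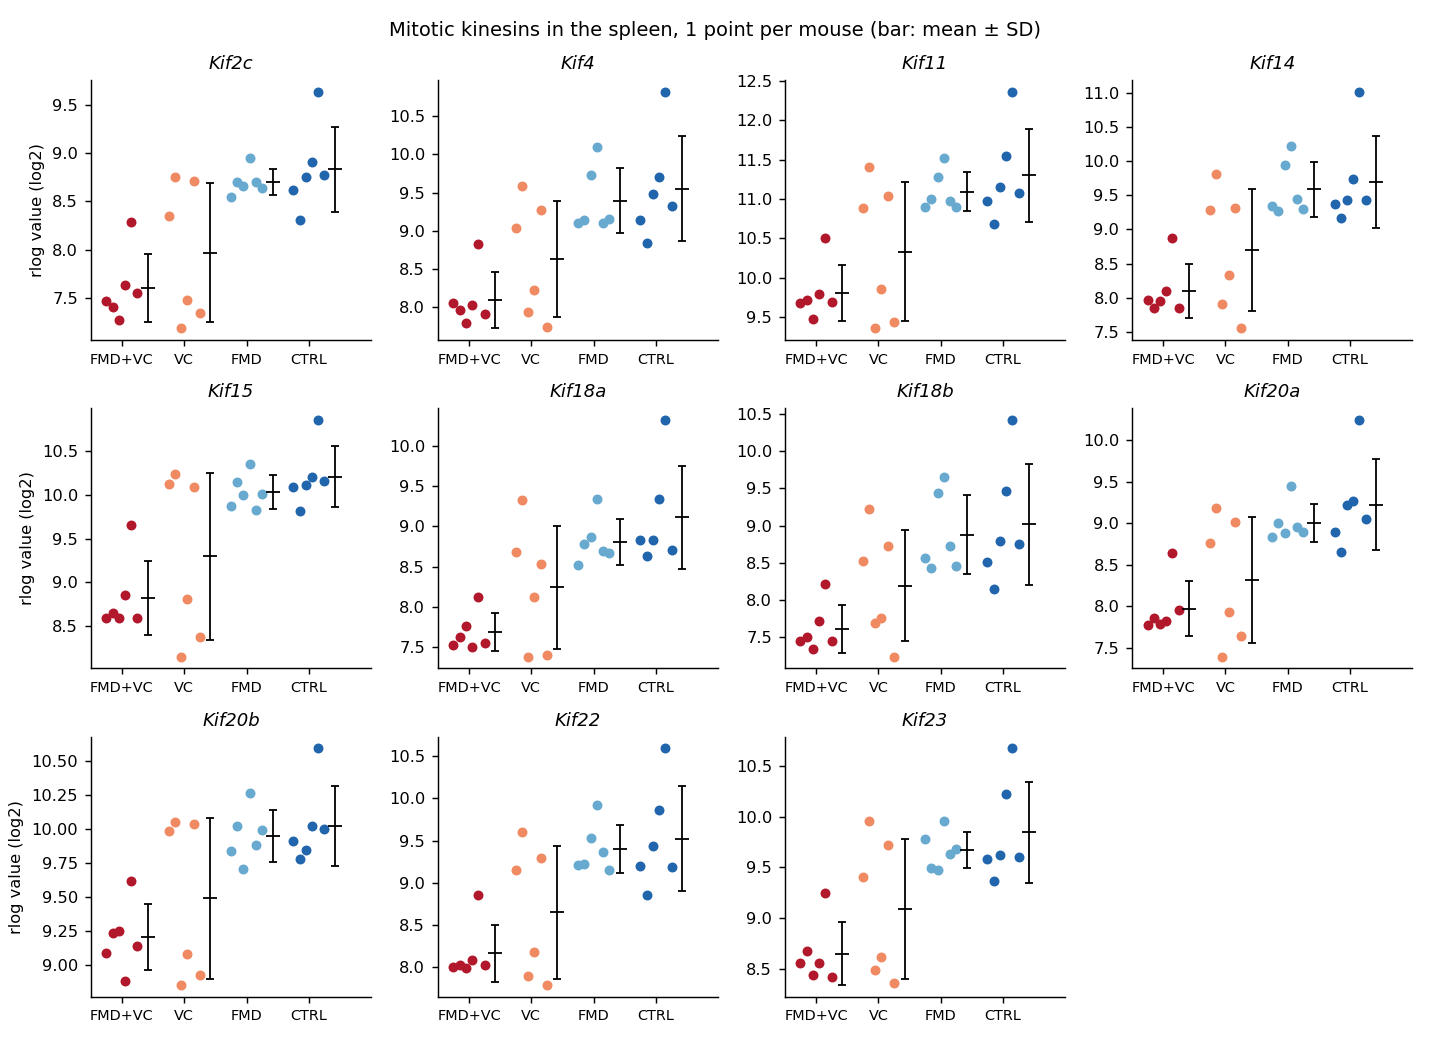
rlog (y axis, log2) of the 11 mitotic kinesins, 1 point per mouse, with the mean and SD of 6 mice as a bar. FMD+VC mice lie below the FMD mice in all 11 panels, VC mice 13, 14 and 37 lie above VC mice 17, 18 and 41, and the topmost CTRL point is mouse 32 in every panel.

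The same mice were high or low across the mitotic kinesins. CTRL mouse 32 was the highest CTRL mouse and mouse 3 the lowest in 11 of 11 genes, FMD+VC mouse 45 was the highest FMD+VC mouse in 11 of 11, and FMD mouse 11 the highest FMD mouse in 11 of 11. VC mice 13, 14 and 37 were the top 3 of their group in all 11 genes. Averaged over the 11 genes, these 3 mice had rlog values of 9.29, 9.74 and 9.43, within the 9.11 to 10.69 of CTRL mice, while VC mice 17, 18 and 41 had 8.02, 8.40 and 7.98, within or below the 8.15 to 8.99 of FMD+VC mice. FMD mice had 9.32 to 9.98.

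Several marker lists moved with these averages. The mean rlog of 8 markers of cycling cells (such as Mki67, Top2a and Cdk1) was 9.62 to 10.50 in FMD+VC, 9.54 to 11.19 in VC, 10.68 to 11.54 in FMD and 10.54 to 12.45 in CTRL mice. All 8 were called lower in FMD+VC than in CTRL mice, against 20.0% of all tested genes. The erythroid mean was 7.34 to 10.06 in FMD+VC and 8.16 to 13.44 in CTRL mice, so that these groups overlapped, and mouse 45 and mouse 32 were the highest of their groups in it as well. Within VC it did not separate the same mice as the mitotic kinesins, at 8.49, 10.21 and 7.77 in VC mice 17, 18 and 41, against 8.63, 12.01 and 8.14 in VC mice 13, 14 and 37. VC mice 17, 18 and 41 had mature B cell means of 11.84, 12.14 and 11.86, against 10.93, 10.12 and 11.19 in VC mice 13, 14 and 37. Their T cell means were 9.89, 9.42 and 9.97, against 7.84, 7.53 and 8.44 in mice 13, 14 and 37. The same split was seen, the other way, in the pre-B cell means (6.03, 5.85 and 6.28 in mice 17, 18 and 41, against 8.10, 7.35 and 7.43) and the neutrophil means (5.43, 6.44 and 5.72, against 9.02, 9.22 and 8.84). Cycling cell means split in that direction too, at 9.58, 9.92 and 9.54 in mice 17, 18 and 41, against 10.69, 11.19 and 10.87 in mice 13, 14 and 37. So did the megakaryocyte means (7.26, 8.07 and 7.29, against 9.67, 9.23 and 8.63). The part of each cell type in the kinesin levels was not tested beyond the erythroid covariate. The mean of the 13 transport kinesins stayed within 7.75 to 8.10 over all 24 mice. That mean averages over members that differed in opposite directions, such as Kif17 (3.01 to 5.18 over all mice) and Kif5c (4.07 to 6.13).

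**Figure D4:**
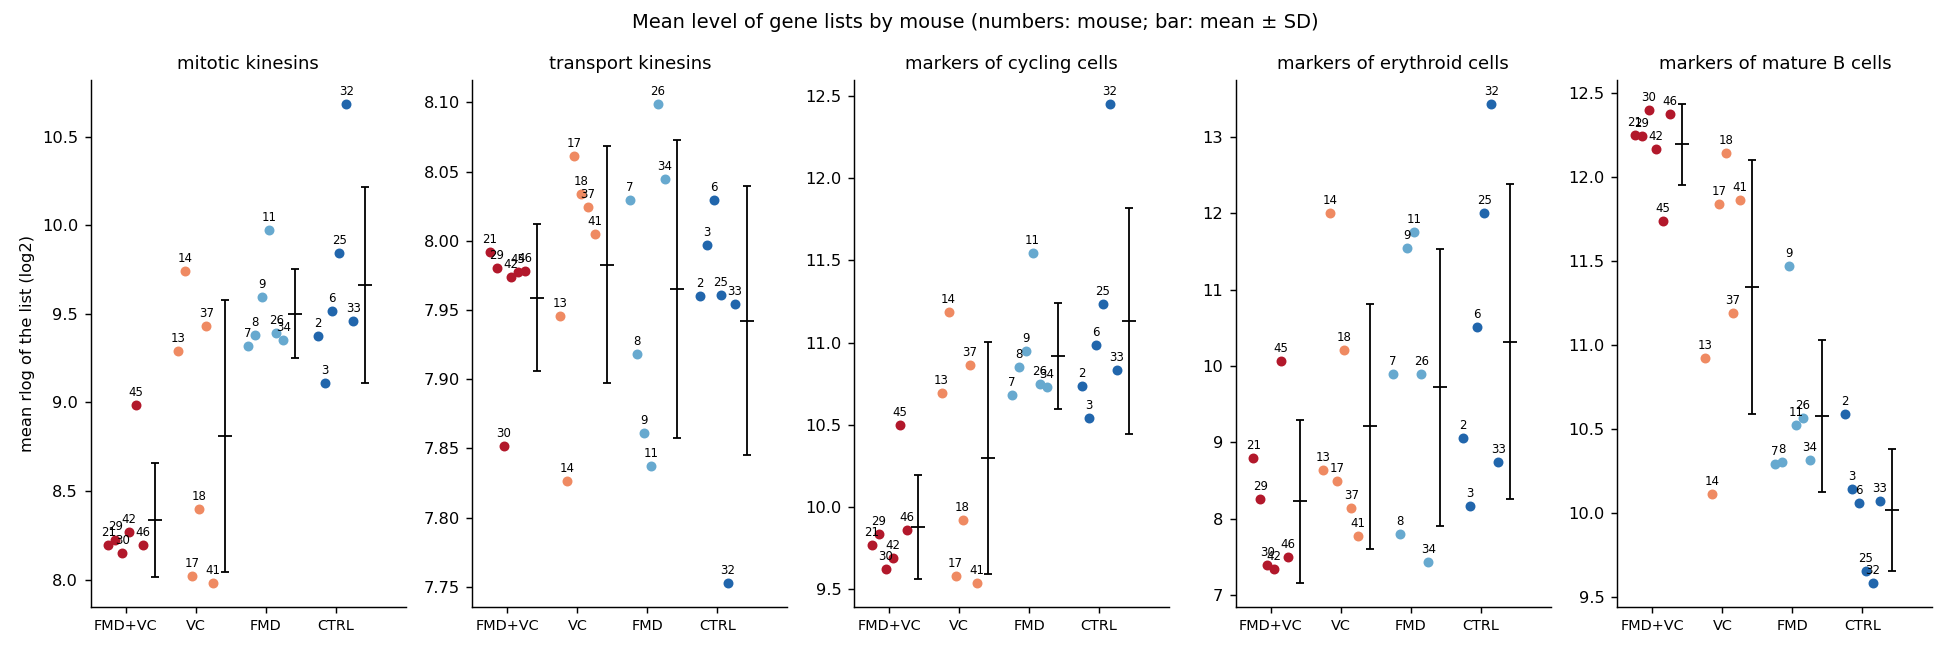
Mean rlog (y axis, log2) of the mitotic kinesins, the transport kinesins and 3 marker lists for each mouse (numbers), with the mean and SD of 6 mice as a bar. Mouse 45 in FMD+VC and mouse 32 in CTRL are the highest of their groups for mitotic kinesins, cycling and erythroid markers. The mean of the transport kinesins varies over a narrow range in all 4 groups, although single members such as Kif17 and Kif5c vary more.

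Kif24 (chr4:41390745-41464887), which sits at the mother centriole and holds back cilium assembly, followed the mitotic members. Kif24 had a lowest, median and highest rlog of 7.44, 7.57 and 7.75 in FMD+VC, 7.38, 8.06 and 8.78 in VC, 8.25, 8.45 and 8.94 in FMD, and 8.37, 8.50 and 9.80 in CTRL mice. The FMD+VC mice lay in a narrow range below all FMD and CTRL mice, and CTRL mouse 32 was the highest of all 24. Mean Kif24 was 2.23-fold lower in FMD+VC than in CTRL spleens (log2 difference -1.16 ± 0.24 SE, adjusted p = 0.000791). Kif7 (chr7:79698098-79715720) acts at the tip of the primary cilium in Hedgehog signaling. Kif7 had a lowest, median and highest rlog of 4.86, 5.05 and 5.36 in FMD+VC, 5.04, 5.24 and 5.95 in VC, 5.44, 5.89 and 6.13 in FMD, and 5.74, 5.84 and 6.22 in CTRL mice. FMD+VC mice were below all FMD and CTRL mice here too, while CTRL mouse 32 was not apart for this gene. Kif7 was 1.73-fold lower in FMD+VC than in CTRL spleens, a difference of -0.79 ± 0.16 (SE) on the log2 scale with an adjusted p of 0.000688. Exons of Kif7 share 1.11% of their bases with Ticrr on the other strand, a replication gene with a mean rlog of 8.99, far above that of Kif7, that was itself lower by -1.54 (log2, adjusted p = 0.000434), and 19.1% with an antisense transcript under the minimum.

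Kif17 (chr4:138250435-138301967), a motor known for cargo in dendrites and cilia, fell among the transport kinesins. Kif17 had a lowest, median and highest rlog of 3.01, 3.50 and 4.09 in FMD+VC, 3.29, 4.08 and 4.98 in VC, 3.84, 4.79 and 5.16 in FMD, and 3.90, 4.87 and 5.18 in CTRL mice. CTRL mouse 32 was the lowest CTRL mouse for Kif17, the opposite of its place in the mitotic kinesins, and it alone of the CTRL mice fell within the FMD+VC range. Mean Kif17 was 2.43-fold lower in FMD+VC than in CTRL spleens (log2 difference -1.28 ± 0.30 SE, adjusted p = 0.00248). Kif17 shares 74 exon bases, 1.61% of its own, with Sh2d5 on the same strand, whose mean rlog of 6.38 was above that of Kif17 and which was lower by -1.60 (log2, adjusted p = 0.00209), and reads that fell in both genes were left out of the counts by the methods.

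Kif13a (chr13:46749087-46929867) moves recycling endosomes. Kif13a had a lowest, median and highest rlog of 8.40, 8.66 and 8.99 in FMD+VC, 8.61, 8.99 and 9.34 in VC, 8.93, 9.16 and 9.22 in FMD, and 9.06, 9.14 and 9.32 in CTRL mice. The highest FMD+VC mouse, 45, was below the lowest CTRL mouse but within the FMD range. Kif13a was 1.40-fold lower in FMD+VC than in CTRL spleens, a difference of -0.48 ± 0.11 (SE) on the log2 scale with an adjusted p of 0.00163. Kif5a (chr10:127225696-127263348) is the kinesin-1 heavy chain best known from neurons. Kif5a had a lowest, median and highest rlog of 4.47, 4.60 and 4.98 in FMD+VC, 4.80, 4.89 and 5.03 in VC, 4.58, 5.49 and 6.01 in FMD, and 4.67, 5.26 and 5.53 in CTRL mice. Its FMD+VC mice overlapped the lower FMD and CTRL mice. Kif5a differed by -0.50 ± 0.19 (SE) on the log2 scale between FMD+VC and CTRL spleens, 1.41-fold lower in FMD+VC, with an adjusted p of 0.036. That call was lost in 8 of 12 fits that left out 1 mouse, those without FMD+VC mouse 29, 30, 45 or 46 or CTRL mouse 2, 3, 6 or 33, with adjusted p up to 0.0851, and with no minimum level (adjusted p = 0.0565).

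Kif2a (chr13:106958996-107022126) takes tubulin off microtubule ends at spindle poles and in neurons. It was grouped with the other members despite its spindle role, and no CHR lay in its promoter windows. Kif2a had a lowest, median and highest rlog of 9.92, 10.05 and 10.34 in FMD+VC, 9.88, 10.33 and 10.71 in VC, 10.14, 10.26 and 10.65 in FMD, and 10.24, 10.32 and 11.47 in CTRL mice. FMD+VC mouse 45 was above CTRL mice 2, 3 and 33, the other FMD+VC mice were below all CTRL mice, and CTRL mouse 32 was the highest. Mean Kif2a was 1.41-fold lower in FMD+VC than in CTRL spleens (log2 difference -0.49 ± 0.17 SE, adjusted p = 0.028). The call was lost without FMD+VC mouse 21 or 30 or CTRL mouse 25 or 32 (adjusted p up to 0.075), and with the erythroid covariate (adjusted p = 0.253). The log2 difference was -0.31 without CTRL mouse 32 and -0.21 with the covariate. Exons of Kif2a share 19.2% of their bases with Dimt1 on the other strand, which differed by -0.26 (log2, adjusted p = 0.26).

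The 6 kinesins that rose made up a share close to that of all genes called higher, and they are described gene by gene. Kif21a (chr15:90933276-91049948) rose most. It belongs with Kif21b to the kinesin-4 group, whose members hold back microtubule growth. Kif21a had a lowest, median and highest rlog of 5.27, 5.95 and 6.29 in FMD+VC, 4.27, 4.99 and 5.94 in VC, 3.70, 4.45 and 5.11 in FMD, and 3.68, 3.92 and 4.51 in CTRL mice. All FMD+VC mice were above all FMD and CTRL mice, mouse 45 was the lowest of them, and VC mice reached from CTRL to FMD+VC levels. Kif21a was 3.68-fold higher in FMD+VC than in CTRL spleens, a difference of 1.88 ± 0.26 (SE) on the log2 scale with an adjusted p of 7.66e-05. VC mice 17, 18 and 41, the lowest 3 of their group in mitotic kinesins, had Kif21a at 5.70, 5.94 and 5.28, against 4.53, 4.27 and 4.70 in VC mice 13, 14 and 37.

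Kif21b (chr1:136131389-136177998) is known from neurons and lymphocytes and had the highest mean level per kilobase of exon of all members. Kif21b had a lowest, median and highest rlog of 11.92, 12.54 and 12.67 in FMD+VC, 11.63, 12.12 and 12.89 in VC, 11.65, 11.99 and 12.26 in FMD, and 11.11, 11.98 and 12.17 in CTRL mice. FMD+VC mouse 45 was the one that overlapped the CTRL range. Mean Kif21b was 1.53-fold higher in FMD+VC than in CTRL spleens (log2 difference 0.61 ± 0.20 SE, adjusted p = 0.0178). Without CTRL mouse 32 its adjusted p was 0.0517, and with the erythroid covariate it was 0.148, at a log2 difference of 0.34. Kif19a (chr11:114765388-114790739) shortens cilia by taking tubulin off their ends. Kif19a had a lowest, median and highest rlog of 5.0, 5.17 and 5.60 in FMD+VC, 4.79, 5.15 and 5.46 in VC, 4.36, 4.70 and 5.65 in FMD, and 4.29, 4.52 and 4.79 in CTRL mice. Every FMD+VC mouse was above every CTRL mouse, and FMD mouse 9 was the highest of all 24. Kif19a differed by 0.70 ± 0.18 (SE) on the log2 scale between FMD+VC and CTRL spleens, 1.63-fold higher in FMD+VC, with an adjusted p of 0.0035.

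Among the transport kinesins, Kif5c (chr2:49619298-49774778), a kinesin-1 heavy chain, rose most. Kif5c had a lowest, median and highest rlog of 5.14, 5.65 and 5.92 in FMD+VC, 4.07, 5.17 and 6.13 in VC, 4.40, 4.63 and 5.29 in FMD, and 4.19, 4.51 and 4.89 in CTRL mice. The FMD+VC and CTRL mice did not overlap, and FMD mouse 9 overlapped the FMD+VC range. Mean Kif5c was 2.16-fold higher in FMD+VC than in CTRL spleens (log2 difference 1.11 ± 0.24 SE, adjusted p = 0.00138). Kif1b (chr4:149176319-149307693) carries mitochondria and precursors of synaptic vesicles. Kif1b had a lowest, median and highest rlog of 10.83, 10.93 and 11.08 in FMD+VC, 10.35, 10.78 and 11.12 in VC, 10.33, 10.62 and 10.87 in FMD, and 10.01, 10.51 and 10.79 in CTRL mice. FMD+VC mice were tightly grouped and above all CTRL mice. Kif1b differed by 0.49 ± 0.14 (SE) on the log2 scale between FMD+VC and CTRL spleens, 1.41-fold higher in FMD+VC, with an adjusted p of 0.00816. Kif1c (chr11:70700548-70731964) moves vesicles between the Golgi and the cell edge. Kif1c had a lowest, median and highest rlog of 10.03, 10.22 and 10.30 in FMD+VC, 9.79, 10.12 and 10.56 in VC, 9.81, 9.91 and 10.13 in FMD, and 9.61, 9.87 and 9.89 in CTRL mice. Again the FMD+VC and CTRL mice were apart, while VC mice reached from the CTRL range to above the FMD+VC mice. Kif1c was 1.31-fold higher in FMD+VC than in CTRL spleens, a difference of 0.38 ± 0.11 (SE) on the log2 scale with an adjusted p of 0.00638.

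**Figure D5:**
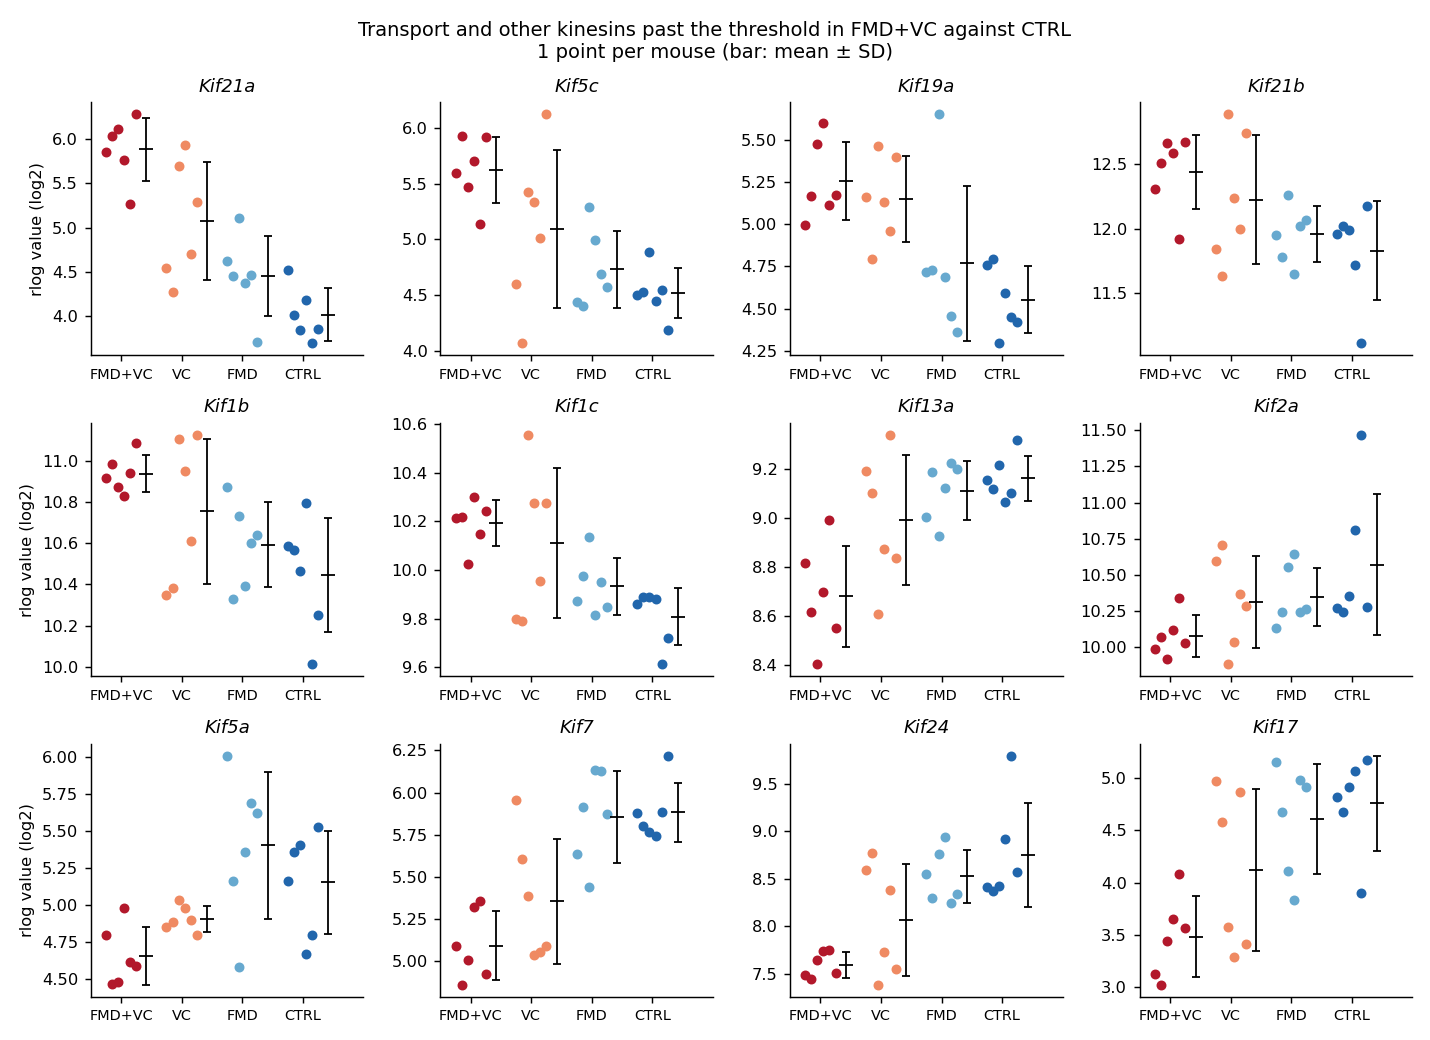
rlog (y axis, log2) of the 12 transport and other kinesins called in FMD+VC against CTRL, 1 point per mouse in the order of mouse numbers, with the mean and SD of 6 mice as a bar, ordered by difference. Among the higher genes, Kif21a, Kif5c, Kif19a, Kif1b and Kif1c do not overlap between FMD+VC and CTRL. Among the lower genes, Kif24, Kif7 and Kif13a do not overlap. VC mice spread over both ranges in Kif21a and Kif17.

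The 10 tested kinesins not called in FMD+VC against CTRL held several of the common carriers. Kif5b, the kinesin-1 heavy chain of most cells, differed by 0.03 on the log2 scale with a 95% interval of -0.13 to 0.18. Its rlog was 11.11 to 11.44 in FMD+VC and 11.08 to 11.62 in CTRL mice, with overlapping groups. The kinesin-2 subunits, which serve cilia and other cargo, had differences of -0.12 for Kif3a (-0.38 to 0.13), 0.08 for Kif3b (-0.06 to 0.23) and 0.12 for Kif3c (-0.17 to 0.40). Exons of Kif3c share 35.3% of their bases with 1110002L01Rik on the other strand, which differed by 0.23 (log2, adjusted p = 0.133). They share 7.94% with Gm48512, also on the other strand, for which no value was given. Kif16b, a motor of early endosomes, differed by 0.16 (-0.02 to 0.34) and Kif13b by -0.15 (-0.32 to 0.02).

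Intervals were wider for the low members. The difference of Kif1a, a neuronal motor, was 0.39 (-0.08 to 0.85), that of Kif9, known from motile cilia and sperm tails, 0.43 (0.01 to 0.86), that of Kif26a 0.42 (0.04 to 0.81) and that of Kif26b -0.13 (-0.48 to 0.23). Kif26a did not overlap between FMD+VC (5.59 to 6.03) and CTRL mice (5.07 to 5.57) although its adjusted p was 0.0736.

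Per kilobase of exon (rlog minus the log2 of the exon length in kilobases), the highest means in FMD+VC mice were 8.83 for Kif21b, 8.33 for Kif5b, 7.40 for Kif2a, 7.33 for Kif1c and 7.10 for Kif3b, with Kif11 at 6.91. In CTRL mice the means were 8.40 for Kif11, 8.30 for Kif5b, 8.22 for Kif21b and 7.89 for Kif2a. No order is read from the first 3 of these, since CTRL mouse 32 was the highest CTRL mouse for Kif11 (rlog 12.36) and the lowest for Kif21b (rlog 11.11).

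The second comparison asks what vincristine did in mice on the diet. In FMD+VC against FMD mice 16 kinesins were lower and 4 higher, against 10.9% and 12.6% of all tested genes, so that the share called higher was close to that of all genes. All 11 mitotic kinesins were lower, with log2 differences between -1.49 (Kif14) and -0.75 (Kif20b), a median of -1.22 and adjusted p between 0.00495 and 0.0119. The groups did not overlap in 13 lower kinesins, the 11 mitotic ones with Kif24 and Kif7, and in 1 higher one, Kif21a, against 5.16% and 5.96% of all tested genes. This comparison shares the FMD+VC mice with the one above, so that the lists are not independent of each other. The caution of the paper on leukemia burden covers FMD mice as well.

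The other lower members were Kif17 at -1.13 ± 0.30 (SE, adjusted p = 0.0115), Kif24 at -0.93 ± 0.24 (SE, adjusted p = 0.00824) and Kif7 at -0.76 ± 0.16 (SE, adjusted p = 0.00321). Kif5a differed by -0.75 ± 0.19 (SE, adjusted p = 0.00736) and Kif13a by -0.43 ± 0.11 (SE, adjusted p = 0.00811). Higher members were Kif21a at 1.44 ± 0.26 (SE, adjusted p = 0.00217), Kif5c at 0.89 ± 0.24 (SE, adjusted p = 0.0122), Kif1a at 0.73 ± 0.22 (SE, adjusted p = 0.0215) and Kif19a at 0.49 ± 0.18 (SE, adjusted p = 0.0476). Kif1a had a lowest, median and highest rlog of 5.02, 5.39 and 6.08 in FMD+VC, 4.85, 5.08 and 6.21 in VC, 4.28, 4.74 and 5.16 in FMD, and 4.72, 5.11 and 5.48 in CTRL mice. Its FMD+VC and FMD mice overlapped over a small range. The call of Kif1a was lost without FMD+VC mouse 21 or 29 or FMD mouse 11 (adjusted p up to 0.063), and that of Kif19a in 9 of 12 such fits, those without FMD+VC mouse 29, 30, 42 or 46 or FMD mouse 7, 8, 11, 26 or 34 (adjusted p up to 0.115). Without FMD+VC mouse 29 or FMD mouse 11, 2 kinesins in all were called higher.

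Vincristine alone gave few calls. In VC against CTRL mice 2 kinesins were lower and 2 higher, against 2.53% and 3.92% of all tested genes (6.45% in either direction). Kif2c differed by -0.86 ± 0.25 (SE, adjusted p = 0.0451) and Kif7 by -0.53 ± 0.16 (SE, adjusted p = 0.0469), while Kif21a differed by 1.06 ± 0.26 (SE, adjusted p = 0.0274) and Kif19a by 0.60 ± 0.18 (SE, adjusted p = 0.0461). No kinesin was free of overlap between VC and CTRL mice in either direction, against 0.580% of all tested genes that were lower and 0.634% that were higher in every VC mouse.

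The mitotic kinesins all lay below 0 in this comparison, from -1.0 to -0.54 with a median of -0.87, and all 11 had an unadjusted p under 0.05, but only Kif2c passed after adjustment (range of adjusted p 0.0451 to 0.122). Calls turned on single mice of the spread-out VC group. Without VC mouse 14, the highest in all 11 genes, all 11 mitotic kinesins were called lower, and without VC mouse 13 or 37 it was 9 of them. None of the 11 was called without VC mouse 17, 18 or 41 or CTRL mouse 6, 25, 32 or 33. The call of Kif2c was lost without those same 7 mice in turn (adjusted p up to 0.13), and that of Kif21a without VC mouse 17, 18 or 41 or CTRL mouse 6, 32 or 33 (adjusted p up to 0.09). Kif19a lost its call in 8 of 12 such fits (adjusted p up to 0.126), those without VC mouse 17, 18 or 41 or CTRL mouse 3, 6, 25, 32 or 33, and Kif7 in 10 of 12 (adjusted p up to 0.129), all but those without VC mouse 13 or 14.

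The diet alone moved no kinesin past the threshold. In FMD against CTRL mice limma called 0 of 33 in either direction, as were 0% of all 16557 genes, and 0 of 33 had an unadjusted p under 0.05. No kinesin was free of overlap between FMD and CTRL mice, against 0.0846% of all tested genes that were lower and 0.145% that were higher in every FMD mouse. The 11 mitotic kinesins differed by -0.30 to -0.07 with a median of -0.16, which became 0.03 without CTRL mouse 32. Differences over all 33 ran from -0.35 (Kif1a) to 0.44 (Kif21a). The 95% intervals of the mitotic members, such as -0.84 to 0.43 for Kif11 and -0.48 to 0.34 for Kif20b, reach beyond changes of that size in both directions.

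Adding the diet to vincristine gave no call either. In FMD+VC against VC mice 0 of 33 kinesins passed the threshold in either direction, as did 0% of all genes, and no kinesin was free of overlap, against 0.0906% of all tested genes in each direction. An unadjusted p under 0.05 was found for 4 of them, Kif21a at 0.82 ± 0.26 (SE, adjusted p = 0.422), Kif13a at -0.31 ± 0.11 (SE, adjusted p = 0.424), Kif5c at 0.53 ± 0.24 (SE, adjusted p = 0.427) and Kif17 at -0.64 ± 0.30 (SE, adjusted p = 0.436). The 11 mitotic kinesins lay between -0.61 and -0.29 with a median of -0.49, none with an unadjusted p under 0.05. That median was -0.30 without VC mouse 14, -0.68 without VC mouse 17 and -0.28 with the erythroid covariate. With limma's library weights, which give VC mice 17, 18 and 41 weights of 0.27, 0.44 and 0.41 while FMD+VC mice range up to 7.29, 16 kinesins were called lower and 6 higher, among them all 11 mitotic ones as lower, with a median of -0.90. The share of all genes called with these weights was not computed, so these counts cannot be set against a background.

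The interaction, the difference of FMD+VC minus VC less that of FMD minus CTRL, was called for 0 of 33 kinesins and 0% of all genes, and none had an unadjusted p under 0.05. Its values for the mitotic kinesins lay between -0.50 and -0.13 with a median of -0.30. Leaving out 1 mouse gave medians from -0.10 (without VC mouse 14) to -0.51 (without VC mouse 17), with -0.18 without VC mouse 37, -0.19 without CTRL mouse 3, -0.49 without VC mouse 41 and -0.50 without CTRL mouse 32. No difference between the effect of the diet with and without vincristine was detectable in these mice, and with the library weights 5 kinesins were called lower, 3 of them mitotic, with a mitotic median of -0.93. For the weighted interaction, too, the share of all genes called was not computed.

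Motors with other names and their partners were set beside the family. Kifc1, a minus-end motor that focuses spindle poles, was lower in FMD+VC than in CTRL mice by 1.47 and Cenpe, the kinetochore kinesin that brings chromosomes to the equator, by 1.40 on the log2 scale (adjusted p = 0.000419 and 0.0013). Kifc2 was higher by 0.56 (adjusted p = 0.0431) and Kifc3 differed by 0.16 (adjusted p = 0.291). Of 18 spindle partners of mitotic kinesins, all 18 were lower, against 20.0% of all tested genes, with a median of -1.37. They included Bub1b of the spindle checkpoint at -1.26 (adjusted p = 0.000355), Ect2, which starts the cleavage furrow, at -1.54 (adjusted p = 0.000485), the checkpoint gene Kntc1 at -1.44 (adjusted p = 0.000801) and the kinase Aurkb at -1.28 (adjusted p = 0.000893).

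Of 16 kinesin light chains and adaptors, 3 were higher and 0 lower, with a median of 0.01, against 19.5% and 20.0% of all tested genes, so that the share called higher was close to that of all genes. These were the spectrin Sptbn1 at 0.49 (adjusted p = 0.00286), the lysosomal GTPase Arl8a at 0.41 (adjusted p = 0.00405) and the light chain Klc2 at 0.40 (adjusted p = 0.0248), while Klc1 differed by -0.04 (adjusted p = 0.743). Of 19 tested genes of dynein and dynactin, the motor that runs the other way, 3 were higher and 2 lower, with a median of 0.01, against the same shares of all tested genes. Dynll2 was at 0.39 (adjusted p = 0.00285), Dynlt3 at 0.45 (adjusted p = 0.0113), Dctn6 at -0.43 (adjusted p = 0.000742) and Nde1, which also works in mitosis, at -0.49 (adjusted p = 0.00527).

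In FMD+VC against FMD mice the 18 spindle partners were again all lower, against 10.9% of all tested genes, with a median of -1.18, and Kifc1 and Cenpe were the 2 lower genes of the 4 kinesins with other names. In VC against CTRL mice 2 of the 18 partners were lower, against 2.53% of all tested genes, with a median of -0.87. In FMD against CTRL mice 0 of the 18 were called, with a median of -0.16.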

How the data were processed

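Total RNA of 24 spleens was sequenced by the authors after removal of ribosomal RNA, 6 mice in each group, 1 library per mouse. Per the submitters' processing notes, reads were mapped with HISAT2 2.1.0, counted per gene with HTSeq 0.6.1 (by the methods in strict intersection mode, without reads that fall in several genes) and handled with DESeq2, with the builds GRCm38 and GRCh38 named. Whether counting used strand, and the DESeq2 version, are not given in the sources used here. What the authors deposited is a table of log2 values per gene, the regularized logarithm of DESeq2. No counts were used, so depth per mouse is unknown and precision rests on the spread between mice alone. The median rlog of a mouse over the tested genes was 7.73 to 7.86.

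Of 46078 genes, 16557 reached an average rlog of 3.32 (the log2 of 10) and were tested, and 13174 were at 0 throughout. The 4 groups entered 1 linear model of 24 mice in limma 3.58.1 (R 4.3.3), with 20 residual degrees of freedom and moderated variances with a trend, and p-values were adjusted over all 16557 genes by Benjamini and Hochberg (threshold 0.05). Errors of differences are moderated standard errors, and intervals are at 95%. Members and lists were chosen with earlier results of these data known. All members are named, with full values for those called in FMD+VC minus CTRL, VC minus CTRL or FMD+VC minus FMD, and up to 4 genes of a list by smallest adjusted p. The fit was tested on simulated data with independent noise for each gene. Those data held no differences between mice that genes share, so they cannot give error rates where the same mice recur. Alternatives were no minimum, a minimum of 50, quantile normalization, only the groups compared, no trend, library weights (arrayWeights), the erythroid marker mean as a covariate, and leaving out each mouse. Promoters are RefSeq windows, and plots used Python 3.11.15 and matplotlib 3.10.9.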

Additional observations from a re-analysis of the deposited data

Results flagged for a closer look

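In 20 of 132 sets of 6 mice (1 member in 1 group, 15.2%), the highest or lowest mouse stood apart by more of the range than Dixon's critical value for 6 samples, where chance marks about 1 in 20 sets, or 6.6 of them. The sets are not independent, since the same mice recur. FMD+VC mouse 45 was apart at the top in 8 mitotic kinesins, with rlog values of 8.28 for Kif2c, 8.82 for Kif4, 10.50 for Kif11, 8.88 for Kif14, 9.65 for Kif15, 8.64 for Kif20a, 8.86 for Kif22 and 9.25 for Kif23. The next FMD+VC mouse was at 7.64, 8.04, 9.80, 8.09, 8.86, 7.96, 8.08 and 8.67 for these genes in the same order. Mouse 45 had a pre-B cell mean of 8.20, against 5.83 to 6.01 in the other FMD+VC mice, the highest erythroid (10.06), neutrophil (7.80) and megakaryocyte (8.64) means and the lowest mature B cell mean (11.74) of its group, and whether cell makeup accounts for its place was not tested.

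CTRL mouse 32 was apart at the top for Kif14 at 11.03 (next 9.74), Kif20b at 10.59 (next 10.02) and Kif3a at 7.07 (next 6.58), and at the bottom for Kif3c at 7.05 (next 7.79). FMD mouse 11 was apart for Kif20a at 9.45 (next 9.00).

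Single mice stood apart in other members. These were VC mouse 41 for Kif3a at 6.18 (next 6.53), FMD+VC mouse 42 for Kif5b at 11.11 (next 11.33), CTRL mouse 33 for Kif7 at 6.22 (next 5.89), FMD mouse 7 for Kif9 at 7.40 (next 6.34), FMD mouse 9 for Kif19a at 5.65 (next 4.73), VC mouse 17 for Kif26b at 3.07 (next 3.48) and FMD mouse 8 for Kif26b at 4.57 (next 3.79).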

How the results depend on the processing

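No paired analysis was possible because the mouse numbers differ between groups. For the 47 calls of single kinesins, 877 alternative values were computed, of which 800 kept direction and call, 77 lost the call and 0 changed direction. The counts of called kinesins moved by over 1.5 times in the following settings, whose cause was not tested except that a minimum of 50 leaves 24 kinesins to test. In FMD+VC minus CTRL, 3 were higher at a minimum of 50 and 11 with library weights. In FMD+VC minus FMD, 0 were higher at a minimum of 50, 10 with library weights and 2 to 5 when each mouse was left out. In VC minus CTRL, 1 was higher with no minimum, with quantile normalization and with the erythroid covariate, 0 at a minimum of 50, with only the groups compared and with library weights, and 0 to 4 when each mouse was left out. In VC minus CTRL, 1 was lower at a minimum of 50, 0 with no minimum, only the groups compared, library weights or the erythroid covariate, and 0 to 13 when each mouse was left out. Library weights gave 6 higher and 16 lower in FMD+VC minus VC and 5 lower in the interaction. Shares of all genes called were computed for the main fit only, so counts under the alternatives have no background beside them. All 11 mitotic kinesins stayed called lower in FMD+VC minus CTRL and in FMD+VC minus FMD under every alternative run. Kif2a, not counted among these, lost its call in FMD+VC minus CTRL in some alternatives and was not called in FMD+VC minus FMD. The unknown depth limits what can be said of Kif17, Kif21a and other low members.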
